A study of Mus musculus with 6 samples.

Results

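The calcium- and sodium-activated potassium channels were read from bulk RNA-seq of mouse dorsal root ganglia, which hold the cell bodies of the body's sensory neurons. The members were chosen by name: the gene rows of the deposited table that map to the BK channel pore gene Kcnma1 with its beta subunits Kcnmb1, Kcnmb2 and Kcnmb4, to the SK and IK channel genes Kcnn1, Kcnn2, Kcnn3 and Kcnn4, and to the sodium-activated channel genes Kcnt1 (Slack) and Kcnt2 (Slick). All 10 were found among 54532 gene rows, and all 10 passed the filter on low values, which left 18410 genes for testing. The study compared 3 libraries of Hdac2 conditional knockout ganglia (Hdac2 cKO), labelled Adv-Cre+/hdac2-flop++, with 3 libraries of littermate ganglia (WT), labelled hdac2-flop++ and without Cre. All 6 came from C57BL/6 mice aged 8 weeks, and both groups carried the floxed Hdac2 alleles, so the groups also differed by Cre itself. Advillin-driven Cre acts in sensory neurons, whereas whole ganglia also hold glia, blood, vessel and immune cells, in which Hdac2 was not targeted. The labels do not say how many animals gave each library.

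These channels pass potassium out of the cell when calcium or sodium rises inside it, and so tie the firing of a neuron to its recent activity. BK channels open with voltage and calcium together and shorten the action potential. SK and IK channels open with calcium alone and carry slower afterhyperpolarisations, and Slack and Slick open with intracellular sodium and limit repetitive firing in sensory neurons.

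What the pore-forming members share is the selectivity filter, where potassium ions pass in single file. The coding bases around the filter are shown for 4 of the pore-forming genes because they differ between the calcium- and the sodium-activated genes shown. Each line gives 30 bases of the longest open reading frame of a GENCODE M21 transcript, 5′ to 3′, with the 3 codons of the filter signature in capitals.
Kcnma1: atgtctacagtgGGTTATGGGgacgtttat
Kcnn1: ttcttgtccattGGCTATGGAgacatggtg
Kcnt1: ttctcaactgtgGGCTTCGGTgatgtgacg
Kcnt2: ttttctactgtgGGCTTTGGGgatgtcact
The middle capital codon was TAT, a tyrosine codon, in Kcnma1 and Kcnn1, and TTC or TTT, the phenylalanine codons, in Kcnt1 and Kcnt2. Over the 30 bases Kcnt1 and Kcnt2 were identical at 24, while Kcnma1 shared 15 with Kcnn1 and 21 with Kcnt2.

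All values below are normalised read counts, that is, gene reads divided by a size factor of the library, unless another unit is named. A log2 fold change is the Hdac2 cKO mean less the WT mean of log2 (value + 1), so a positive one means higher in Hdac2 cKO. These come from limma fitted to all 18410 tested genes, with Benjamini-Hochberg adjusted p and a threshold of 0.05.

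The 6 libraries held between 18943595 and 42070531 reads assigned to genes, fewest in WT 2. Hdac2 itself stood at 499, 372 and 535 in Hdac2 cKO 1, 2 and 3, against 2816, 1715 and 3498 in WT 1, 2 and 3, so every Hdac2 cKO library was below every WT library. Its log2 fold change was -2.47 (SE 0.31), and with limma it did not pass either (adjusted p = 0.927). All 10 neuronal markers checked were present in every library, with summed levels from 312313 to 413298 in Hdac2 cKO and from 299995 to 456172 in WT. WT 3 stood apart: its root mean square deviation from the gene means was 1.37 on the log2 scale, against 0.589 to 0.688 in the other libraries, and it held the lowest value of 40.4% of all tested genes. In WT 3 the 20% of genes with the most exon bases had a median deviation of -0.23, against -0.08 (WT 2) to 0.14 in the other libraries. The 20% with the fewest had one of 0.11 in WT 3, against -0.09 to 0.19 in the other libraries, highest in WT 2. The part of this length difference in the values of the channel genes was not tested, and results that rest on WT 3 are also given without it. Y-linked transcripts marked WT 2, WT 3 and Hdac2 cKO 2 as male and the other 3 as female. No gene passed limma's test in this comparison (0.0% of 18410 tested, smallest adjusted p = 0.927). DESeq2 called 26 genes (0.142%), DESeq2 with the replicate block 75 (0.442%) and edgeR 0, while 341 genes (1.85%) had an unadjusted limma p under 0.05. Markers of myelinating Schwann cells, none at 0, summed to between 127023 and 214736 in Hdac2 cKO and between 230854 and 349799 in WT, without overlap. Among values of 1 to 20 reads, 42.4% were even in WT 2, and 60.2% to 64.4% in the other libraries. Why WT 2 differed was not tested, so its read numbers may not be in the same unit as those of the other libraries.

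Per kilobase of exon, Kcnt1 was the most abundant of the 10 genes. Its mean over the 6 libraries was 559 ± 112 normalised read counts per kilobase (SD, n = 6). Kcnmb1 followed at 318 ± 123 and Kcnn1 at 294 ± 74.3 (SD, n = 6). Kcnt1 was above Kcnmb1 in 6 of 6 libraries without overlap of their ranges, whereas Kcnmb1 was above Kcnn1 in only 3 of 6, so the order of this pair is not resolved. Below a clear gap after Kcnn1 came Kcnn4 at 97.4 ± 18.1 per kilobase and the BK pore gene Kcnma1 at 71.5 ± 27.7, with Kcnn4 the higher in 6 of 6 libraries although their ranges overlapped. Kcnmb2 at 47.5 ± 7.90, Kcnn2 at 41.9 ± 5.24 and Kcnt2 at 34.6 ± 10.7 per kilobase formed a group of neighbours with overlapping ranges. Kcnmb4 at 18.01 ± 12.98 and Kcnn3 at 12.4 ± 8.06 per kilobase were lowest, and each was the higher of the pair in 3 of 6 libraries. These levels divide by the union of all annotated exons, which is long where a gene has many isoforms: Kcnma1 has 38 annotated transcripts and 16.976 kb of exon. With the longest transcript as length Kcnma1 was at 100.3 per kilobase, and the order turned only between Kcnmb1 and Kcnn1 and between Kcnmb2 and Kcnn2.

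**Figure D1:**
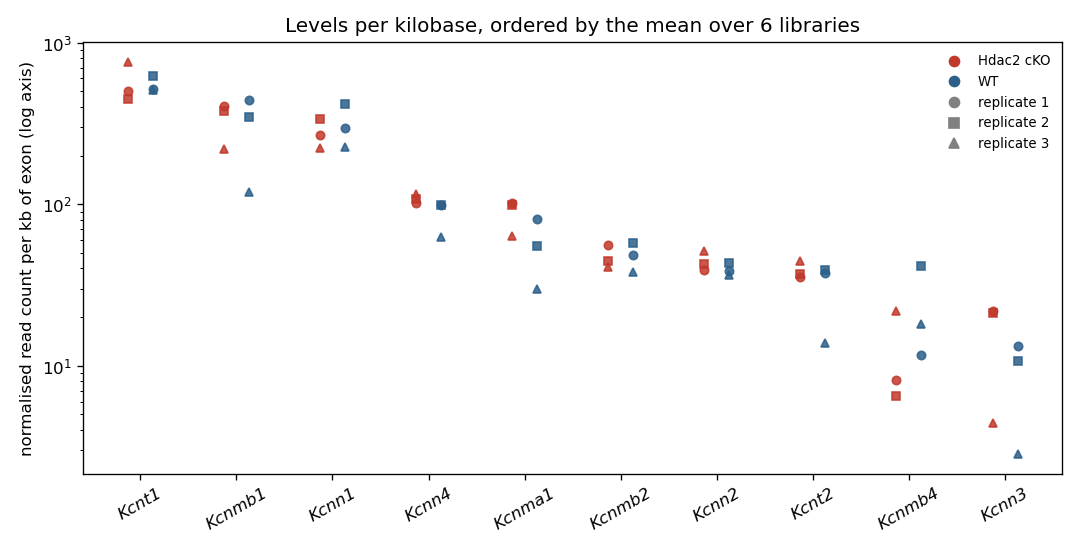
Level of each channel gene in normalised read counts per kilobase of exon (vertical log axis), ordered by the mean over 6 libraries; red points are Hdac2 cKO, blue points WT, and symbols give the replicate. Kcnt1 lies above every other gene, and Kcnmb4 and Kcnn3 have the widest relative spread.

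None of the 10 channel genes passed limma's test, as no gene did, and none had an unadjusted p under 0.05. None was called by DESeq2 or edgeR either. By log2 fold change 7 were higher and 3 lower in Hdac2 cKO, against 55.3% higher over all tested genes. The median log2 fold change was 0.23 over the 10 genes and 0.06 over all genes tested. Groups did not overlap for 1 of the 10, Kcnn4, where 8.54% of all tested genes had groups without overlap. WT 3 held the lowest value of 7 of the 10, more than its 40.4% share over all genes, and without both libraries numbered 3 the median of the 10 was -0.035. In that fit 0 of the 10 and 0.0272% of all genes were called. Without WT 3 alone the median of the 10 was 0.0043.

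**Figure D2:**
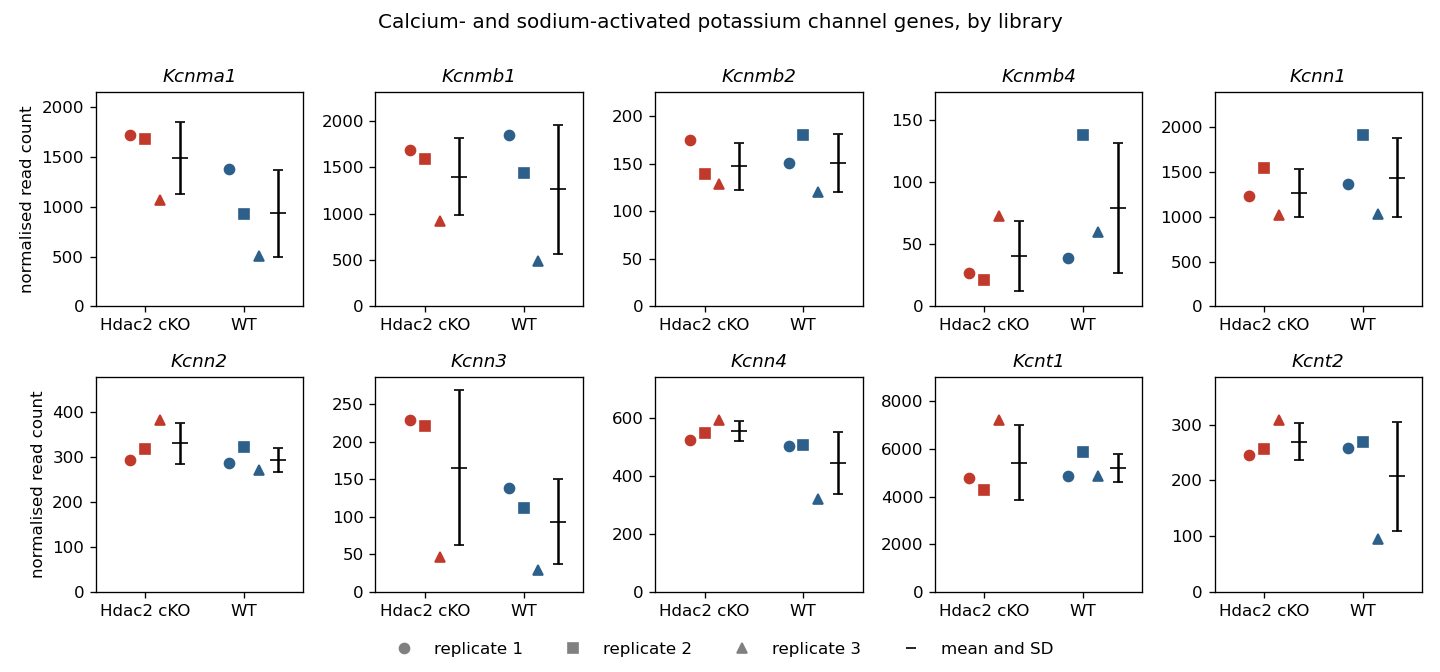
Normalised read count (vertical axis, from 0) of each channel gene in the 3 Hdac2 cKO and 3 WT libraries; symbols give the replicate, and the black bars are the mean and SD. The groups overlap for every gene except Kcnn4, and WT 3 (blue triangle) is lowest for 7 of the 10.

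Kcnma1, which encodes the BK pore and its calcium sensors, had the largest difference of the family relative to its error. Kcnma1 (ENSMUSG00000063142) spans mm10 chromosome 14, 23289431 to 24014491, on the minus strand. It stood at 1722, 1677 and 1071 in Hdac2 cKO 1, 2 and 3, against 1376, 929 and 504 in WT 1, 2 and 3. The groups overlapped through WT 1, which was above Hdac2 cKO 3, but the knockout library was the higher of each same-numbered pair, as it was for 18.2% of all tested genes. Means were 1490.0 ± 363 in Hdac2 cKO and 936 ± 436 in WT (SD, n = 3 each). The log2 fold change was 0.75 (SE 0.39, 95% confidence interval -0.17 to 1.68), and it did not pass (limma adjusted p = 0.927; exact two-sided permutation test p = 0.2, where 0.1 is the smallest that 3 against 3 allows). A log2 fold change at least that large in either direction was held by 16.7% of tested genes. It was 0.37 without WT 3 and 1.09 without WT 1, and 0.59 without both libraries numbered 3. With limma array weights, which gave WT 2 a weight of 4.17 and WT 3 one of 0.101, Kcnma1 was called higher (log2 fold change 0.77, limma adjusted p = 0.0419), where 3.08% of all genes were called. The tested genes with the profile most like that of Kcnma1 over the 6 libraries were Pde10a, a cyclic nucleotide phosphodiesterase, and Rnf125, a ubiquitin ligase. Their root mean square differences from it were 0.0567 and 0.0576 on the centred log2 scale, against a median of 0.726 over all tested genes.

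Kcnmb1, the beta1 subunit that raises the calcium sensitivity of BK and is best known from smooth muscle, was the most abundant beta subunit in these ganglia. Kcnmb1 (ENSMUSG00000020155, on the plus strand of mm10 chromosome 11 from 33963013 to 33973641) stood at 1685, 1589 and 926 in Hdac2 cKO 1, 2 and 3, against 1852, 1444 and 496 in WT 1, 2 and 3. The highest and the lowest library were both WT, and in each group the library numbered 3 was the lowest. Kcnmb1 had a log2 fold change of 0.30 (SE 0.51, 95% confidence interval -0.89 to 1.49; limma adjusted p = 0.931), and it turned to -0.27 without WT 3. Markers of smooth muscle and pericytes, all 10 of them present in every library, summed to 8676, 12134 and 7810 in Hdac2 cKO 1, 2 and 3, against 13792, 10454 and 5786 in WT 1, 2 and 3. The numbered-3 libraries were lowest in both groups for this sum too, and its part in the Kcnmb1 values was not tested. Single markers differed: Myl9, Myh11, Pdgfrb and Acta2 were lowest in both numbered-3 libraries. Rgs5, the most abundant, and Cnn1 were not lowest in Hdac2 cKO 3, nor were Des and Notch3 in WT 3. Lmod1 was highest in the numbered-3 library of each group, and Tagln was lowest in neither. In whole-ganglion RNA, fewer cells of a type and less RNA per cell cannot be told apart. Kcnmb1 lies inside Kcnip1, a potassium channel interacting protein gene on the opposite strand, with no exon shared. Kcnip1 stood at 1113, 1389.7 and 738 in Hdac2 cKO 1, 2 and 3, against 1104, 1216 and 223 in WT 1, 2 and 3, so WT 3 was its lowest library as well. The nearest profiles to Kcnmb1 were those of Kcnj12, an inward rectifier potassium channel, and Actn4, an actin cross-linker, at root mean square differences of 0.0745 and 0.0842.

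The RefSeq promoter windows (GRCm38.p6, 250 bases before to 50 after the start) of Kcnma1 and Kcnmb1 are shown because these 2 genes encode subunits of the same channel. Their profiles over the libraries had a root mean square difference of 0.304, and some other member pairs were closer, such as Kcnn2 and Kcnt1 at 0.160. Capitals mark GGGCGG, the GC box bound by Sp-family factors, on either strand.
Kcnma1 promoter, chr14:24004156-24004455, minus strand: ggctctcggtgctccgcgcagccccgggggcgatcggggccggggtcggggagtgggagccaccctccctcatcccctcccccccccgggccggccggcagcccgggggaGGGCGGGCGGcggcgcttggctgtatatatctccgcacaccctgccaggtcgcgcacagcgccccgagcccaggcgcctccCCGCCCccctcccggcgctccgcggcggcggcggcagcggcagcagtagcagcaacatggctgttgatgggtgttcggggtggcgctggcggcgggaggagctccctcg
Kcnmb1 promoter, chr11:33962763-33963062, plus strand: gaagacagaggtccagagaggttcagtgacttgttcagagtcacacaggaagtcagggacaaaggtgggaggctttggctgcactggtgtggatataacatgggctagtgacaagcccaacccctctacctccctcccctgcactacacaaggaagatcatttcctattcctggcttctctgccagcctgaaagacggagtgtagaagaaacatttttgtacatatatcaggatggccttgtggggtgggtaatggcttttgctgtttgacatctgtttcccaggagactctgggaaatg
The Kcnma1 window held 36 CpG dinucleotides, 78.0% G and C, and 3 GC boxes, 2 of which overlap. The Kcnmb1 window held 1 CpG, 49.7% G and C, and no match to the GC box. Over 32851 RefSeq promoter windows of the same length, the median was 7 CpG and 52.7% G and C, and 35.7% held a GC box on either strand. Windows were read for 8 of the 10 members, with Kcnn2 left out beforehand. Beyond the 2 shown, Kcnmb4 held 48 CpG and 4 GC boxes, and Kcnn4 held 6 CpG and 1 GC box. The 2 windows of Kcnn1 held 16 CpG with 2 GC boxes and 13 CpG with none. Kcnmb2, Kcnn3 and Kcnt2, with 9, 11 and 12 CpG, held no GC box.

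Kcnmb4, the beta4 subunit that slows BK gating in neurons, was scarce and had the largest negative fold change. Kcnmb4 (ENSMUSG00000054934; mm10 chromosome 10, 116417861 to 116473878, minus strand) stood at 27.3, 21.6 and 72.7 in Hdac2 cKO 1, 2 and 3, against 38.8, 138 and 60.3 in WT 1, 2 and 3. These rest on 22 to 104 reads a library. WT 2 was the highest, and Hdac2 cKO 3 was above both WT 1 and WT 3, so the groups overlapped. For Kcnmb4 the log2 fold change came to -0.95 (SE 0.68, 95% confidence interval -2.55 to 0.65; limma adjusted p = 0.927). It was -0.45 without WT 2, -0.61 without Hdac2 cKO 2, -1.47 without Hdac2 cKO 3 and -1.56 without both libraries numbered 3. Under array weights, where WT 2 counts most among the WT libraries, Kcnmb4 was called lower (log2 fold change -2.13, limma adjusted p = 0.0373). Of its 3324 exon bases, 693 lie opposite the antisense gene Kcnmb4os2. Kcnmb4os2 stood at 46.5, 23.6 and 44.1 in Hdac2 cKO 1, 2 and 3, against 32.6, 23.8 and 245 in WT 1, 2 and 3. The strand setting of the counting is not stated, so reads of Kcnmb4 and Kcnmb4os2 cannot be told apart there. Its nearest profiles were the low-count genes Gm15610 and Ppp1r18os.

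Kcnmb2, the beta2 subunit that gives BK currents fast inactivation, was the steadiest of the BK genes. Kcnmb2 (ENSMUSG00000037610, on the plus strand of mm10 chromosome 3 from 31902507 to 32200180) stood at 175, 139 and 128 in Hdac2 cKO 1, 2 and 3, against 150.9, 180.2 and 119.6 in WT 1, 2 and 3. The ranges of the groups nearly coincided. Kcnmb2 had a log2 fold change of -0.023 (SE 0.32, 95% confidence interval -0.77 to 0.73; limma adjusted p = 0.991). Its nearest profiles were those of Etv6, a transcriptional repressor, and Supt5, a transcription elongation factor.

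Relative to the pore gene, Kcnmb1 was lower in these 3 Hdac2 cKO libraries than in these 3 WT libraries. Kcnmb1 reads per Kcnma1 read were 0.979, 0.948 and 0.864 in Hdac2 cKO 1, 2 and 3, against 1.35, 1.55 and 0.984 in WT 1, 2 and 3. All 3 knockout ratios were below all WT ratios, though Hdac2 cKO 1 and WT 3 nearly met. Means were 0.930 ± 0.0593 in Hdac2 cKO and 1.29 ± 0.289 in WT (SD, n = 3 each). This ratio was chosen after its values were seen and is given as a description, without a test. How often ratios of other gene pairs separate the groups was not counted. The ratio of Kcnmb2 to Kcnma1 was 0.101 ± 0.0184 in Hdac2 cKO and 0.180 ± 0.0649 in WT, and that of Kcnmb4 to Kcnma1 was 0.0322 ± 0.0309 in Hdac2 cKO and 0.0990 ± 0.0630 in WT (SD, n = 3 each). Both of these overlapped between groups. As all 3 ratios divide by Kcnma1, they share its values.

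**Figure D3:**
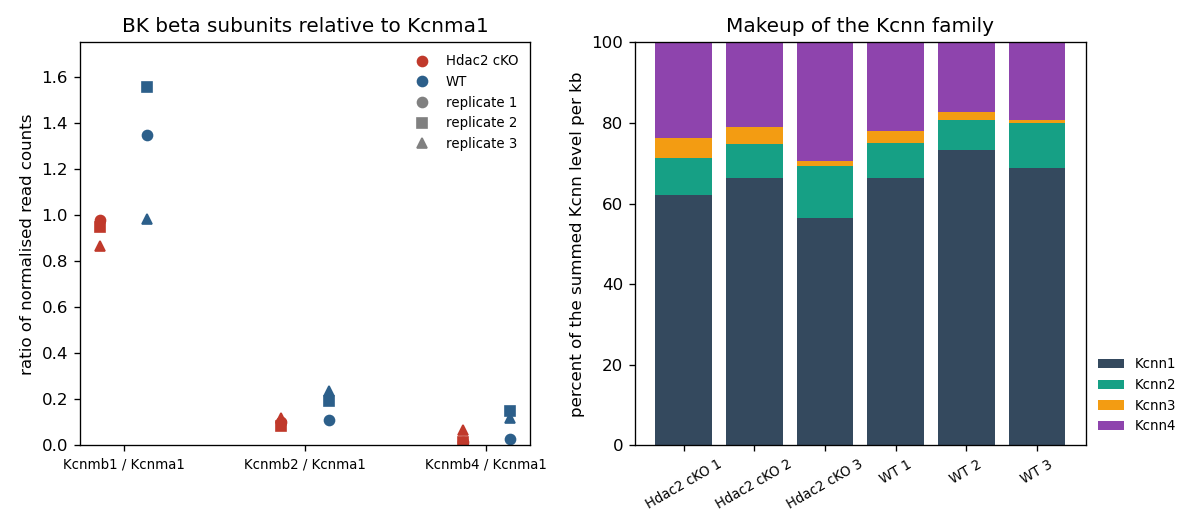
Left, ratio of the normalised read count of each BK beta subunit gene to that of Kcnma1 in each library (red Hdac2 cKO, blue WT, symbols for replicates). Right, share of each Kcnn gene in the summed Kcnn level per kilobase of exon in each library, in percent; Kcnn1 makes up at least 56.4% of it in every library.

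Among the SK genes, Kcnn1 (SK1) made up most of the Kcnn level per kilobase. Its share was 61.6 ± 5.02% in Hdac2 cKO and 69.5 ± 3.45% in WT (SD, n = 3 each). Kcnn4 held 24.7 ± 4.29% in Hdac2 cKO and 19.5 ± 2.37% in WT, and Kcnn2 held 10.2 ± 2.51% in Hdac2 cKO and 9.12 ± 1.82% in WT. Kcnn3 held 3.45 ± 2.06% in Hdac2 cKO and 1.90 ± 1.05% in WT (SD, n = 3 each). The groups overlapped for all 4 shares, which were not tested.

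Kcnn1 (ENSMUSG00000002908; mm10 chromosome 8, 70842049 to 70863258, minus strand) stood at 1231, 1546 and 1015 in Hdac2 cKO 1, 2 and 3, against 1359.7, 1910.4 and 1032 in WT 1, 2 and 3. The knockout library was the lower of each same-numbered pair, as it was for 14.6% of all tested genes, but by little in pair 3, and the groups overlapped. With a log2 fold change of -0.16 (SE 0.29, 95% confidence interval -0.84 to 0.52; limma adjusted p = 0.936), Kcnn1 did not pass, and the value was 0.072 without WT 2. The nearest profiles were those of Reep6, an endoplasmic reticulum shaping protein, and the antisense gene AA387200. Kcnn2 (SK2, ENSMUSG00000054477, on the plus strand of mm10 chromosome 18 from 45268860 to 45686024) stood at 294.0, 318 and 383 in Hdac2 cKO 1, 2 and 3, against 288, 323 and 272 in WT 1, 2 and 3. Kcnn2 had a log2 fold change of 0.17 (SE 0.25, 95% confidence interval -0.41 to 0.74; limma adjusted p = 0.928), which was 0.060 without Hdac2 cKO 3 and 0.0053 without both libraries numbered 3. It had the narrowest spread of the SK genes, and its profile was closest among the members to that of Kcnt1, at a root mean square difference of 0.160. Beyond the family the nearest to Kcnn2 were Prpf3, a splicing factor, and Ube2q2, a ubiquitin-conjugating enzyme.

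Kcnn3 (SK3) varied most between libraries of the same group. Kcnn3 (ENSMUSG00000000794, on the plus strand of mm10 chromosome 3 from 89520164 to 89675132) stood at 228, 221 and 46.2 in Hdac2 cKO 1, 2 and 3, against 139, 112 and 29.6 in WT 1, 2 and 3. In both groups the library numbered 3 was far below the others, and the knockout library was the higher of each same-numbered pair. Kcnn3 had a log2 fold change of 0.77 (SE 0.81, 95% confidence interval -1.14 to 2.68; limma adjusted p = 0.927), 0.10 without WT 3 and 0.85 without both libraries numbered 3. Its nearest profiles were the antisense gene Gm10390 and C1qb, a complement gene of macrophages, at root mean square differences of 0.165 and 0.202, against a median of 1.13 over all tested genes. C1qb stood at 820.4, 727 and 182 in Hdac2 cKO 1, 2 and 3, against 609.7, 393 and 150.2 in WT 1, 2 and 3. The 6 macrophage markers, with Cd68 at 0 in 1 or more libraries, summed to 2753, 1965 and 1244 in Hdac2 cKO 1, 2 and 3, against 2335, 1574 and 1089.5 in WT 1, 2 and 3. This sum had the same order within each group as Kcnn3 did, and its part in the Kcnn3 values was not tested. Mrc1, Cd68, Adgre1 and Csf1r had that order too, but the other markers did not. Aif1 was highest in the numbered-3 library of each group, at 346 in Hdac2 cKO 3 and 520 in WT 3. Cx3cr1 was lowest of the knockout libraries in Hdac2 cKO 2, at 101.

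Kcnn4 (IK, KCa3.1), known from red blood cells, T cells and microglia as well as sensory neurons, was the member whose groups did not overlap. Kcnn4 (ENSMUSG00000054342, on the plus strand of mm10 chromosome 7 from 24370263 to 24386690) stood at 523, 546 and 591 in Hdac2 cKO 1, 2 and 3, against 504, 505 and 321 in WT 1, 2 and 3. The separation was narrow, since Hdac2 cKO 1 lay just above WT 2, and WT 3 was far below the rest. Means were 554 ± 34.4 in Hdac2 cKO and 443 ± 106 in WT (SD, n = 3 each). The log2 fold change was 0.35 (SE 0.26, 95% confidence interval -0.26 to 0.96; limma adjusted p = 0.927; exact two-sided permutation test p = 0.1, the smallest possible). Without WT 3 it was 0.13, and without both libraries numbered 3 it was 0.08. Erythroid markers summed to 50956, 77197 and 1330.3 in Hdac2 cKO 1, 2 and 3, against 53021, 7099 and 2758 in WT 1, 2 and 3, and Alas2 was at 0 in 1 or more libraries. The 6 T cell and granulocyte markers summed to 8652, 13544 and 190.2 in Hdac2 cKO 1, 2 and 3, against 14962, 777 and 261 in WT 1, 2 and 3, with Cd3d and Cd3g at 0 in 1 or more libraries. Where this sum was high it was mostly the granulocyte genes S100a8 and S100a9, at 3895 and 4134 in Hdac2 cKO 1. The T cell genes were low and did not share an order. Cd3e was highest in WT 3 (86.9), Cd3g in Hdac2 cKO 1 (30.3) and Cd3d in Hdac2 cKO 2 (49.1). The part of these cells in the Kcnn4 values was not tested. Its nearest profiles were Shoc2, a scaffold of the Ras pathway, and Ubac2, an endoplasmic reticulum protein, at root mean square differences of 0.0208 and 0.0309.

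Of the sodium-activated channels, Kcnt1 (Slack) was abundant in every library and Kcnt2 (Slick) far less so. Kcnt1 (ENSMUSG00000058740, on the plus strand of mm10 chromosome 2 from 25863734 to 25918273) stood at 4769, 4277 and 7201 in Hdac2 cKO 1, 2 and 3, against 4871, 5865 and 4849 in WT 1, 2 and 3. Hdac2 cKO held both the highest and the lowest library. The log2 fold change was 0.03 (SE 0.25, 95% confidence interval -0.55 to 0.61; limma adjusted p = 0.984), and its sign turned in several settings, to -0.24 without both libraries numbered 3. Its nearest profiles were those of the processed pseudogene Gm12537 and of Ccdc136, a coiled-coil protein gene. Kcnt2 (ENSMUSG00000052726, on the plus strand of mm10 chromosome 1 from 140246158 to 140612067) stood at 246, 256 and 308 in Hdac2 cKO 1, 2 and 3, against 259, 268 and 95.1 in WT 1, 2 and 3. WT 3 was far below all other libraries, which lay close together. Kcnt2 had a log2 fold change of 0.51 (SE 0.44, 95% confidence interval -0.52 to 1.55; limma adjusted p = 0.927), but 0.03 without WT 3 and -0.071 without both libraries numbered 3. The nearest profiles to Kcnt2 were Tmem214, a transmembrane protein, and F730043M19Rik, at root mean square differences of 0.0459 and 0.0595. Normalised reads of Kcnt1 per read of Kcnt2 were 19.4, 16.7 and 23.4 in Hdac2 cKO 1, 2 and 3, against 18.8, 21.9 and 51.01 in WT 1, 2 and 3.

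**Figure D4:**
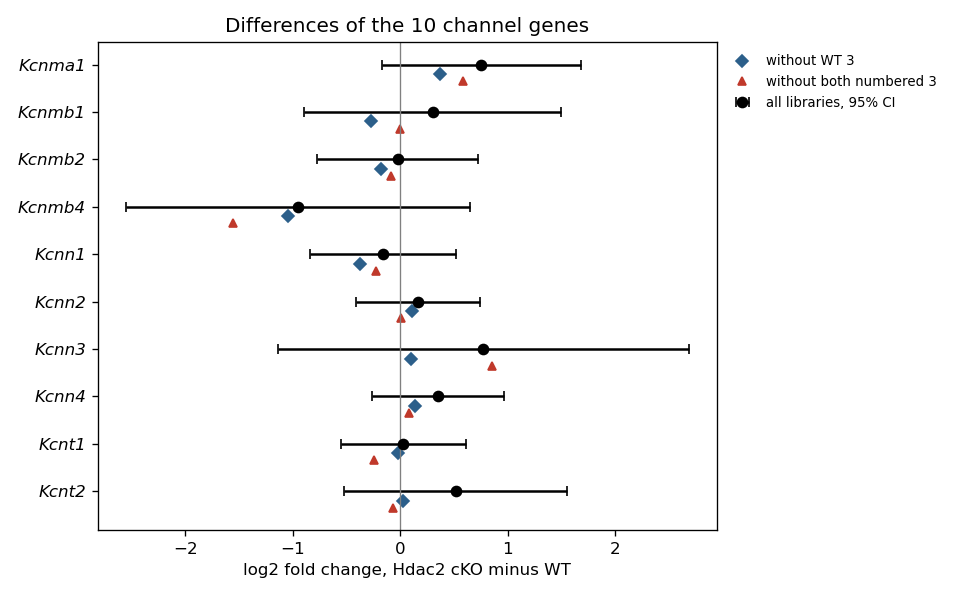
Log2 fold change of each channel gene, Hdac2 cKO minus WT (horizontal axis); black points with bars are the limma estimates with 95% confidence intervals, blue diamonds leave out WT 3, and red triangles leave out both libraries numbered 3. Every interval includes 0, and without both libraries numbered 3 the estimates of Kcnn4 and Kcnt2 are 0.08 and -0.071.

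For 5 of the 10 genes, Kcnma1, Kcnmb1, Kcnmb2, Kcnn1 and Kcnn3, the library numbered 3 was the lowest of its group in both groups, as it was for 30.2% of all tested genes. On the centred log2 scale, the deviations of these genes in that order were -0.07, -0.40, -0.20, -0.37 and -1.12 in Hdac2 cKO 3, and -1.15, -1.30, -0.30, -0.35 and -1.74 in WT 3. Kcnt1, Kcnt2, Kcnn2 and Kcnn4 were instead highest in Hdac2 cKO 3, where the median deviation of the neuronal markers was 0.26. In WT 3 Kcnt2 deviated by -1.23 and Kcnn4 by -0.61, and the neuronal markers went both ways around a median of 0.06. There Scn10a, the nociceptor sodium channel, stood at 6339, its lowest of all libraries, and Uchl1 at 131182, its highest. Markers of non-peptidergic neurons had a median deviation of -0.27 and those of peptidergic neurons one of 0.49 in WT 3, and the part of this in the channel values was not tested. These profiles are a description over 6 libraries, which share their size factors.

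**Figure D5:**
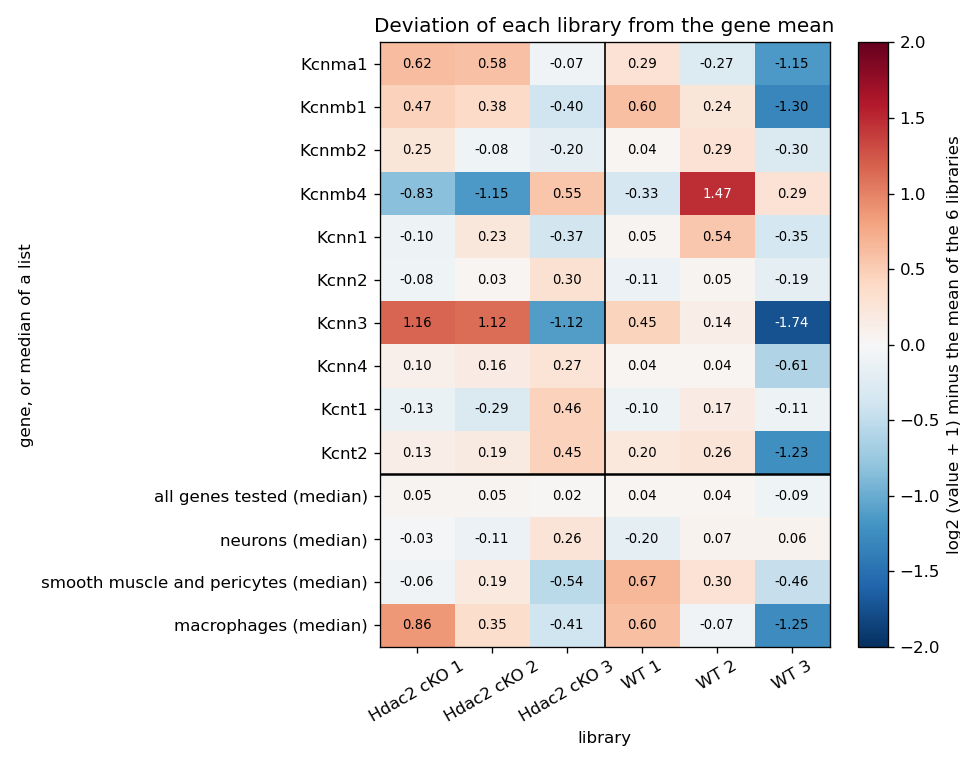
Log2 (value + 1) minus the mean over the 6 libraries, for each channel gene (upper rows) and as medians of all tested genes and of 3 marker lists (lower rows), with libraries in columns; red is above and blue below the mean. WT 3 is the lowest for Kcnma1, Kcnmb1, Kcnn3, Kcnn4 and Kcnt2, while the neuronal median there is 0.06, over markers that went both ways.

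The 30 further genes of these channels' complexes and calcium supply comprised other BK subunits and partners, the calcium-sensing, casein kinase and phosphatase parts of SK channels, regulators of IK, partners of Slack, and calcium store channels with junctophilins. Of these 28 passed the filter, and Kcnmb3 and the BK gamma subunit gene Lrrc52 did not. None passed limma's test, 14 were higher and 14 lower in Hdac2 cKO, and the median log2 fold change was -0.0056, against 0.06 over all genes tested. Over all tested genes 55.3% were higher. The groups overlapped for all 28, where 8.54% of all tested genes had groups without overlap. On the higher side, Ano3 and Prkg1 had the smallest unadjusted p. Ano3, whose product TMEM16C enhances Slack in nociceptive neurons of the rat, stood at 8531, 9427 and 7565 in Hdac2 cKO 1, 2 and 3, against 7909, 5564 and 2657 in WT 1, 2 and 3. Ano3 had a log2 fold change of 0.79 (SE 0.39; limma adjusted p = 0.927), and 0.35 without WT 3. Prkg1, the cGMP-dependent kinase that phosphorylates BK, stood at 1937, 1732 and 1016 in Hdac2 cKO 1, 2 and 3, against 1511, 984 and 172 in WT 1, 2 and 3, and its log2 fold change was 1.24 (SE 0.76), or 0.30 without WT 3. Like Kcnma1, Prkg1 was highest in Hdac2 cKO 1 and lowest in WT 3, which was lowest for 40.4% of all tested genes. On the centred log2 scale Prkg1 deviated by -2.50 in WT 3, against -1.15 for Kcnma1.

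On the lower side of that list, Nme2 and Itpr3 had the smallest unadjusted p. Nme2, a nucleoside diphosphate kinase that activates IK, stood at 5.05, 5.90 and 20.98 in Hdac2 cKO 1, 2 and 3, against 14.1, 53.6 and 36.8 in WT 1, 2 and 3 (log2 fold change -1.70, SE 0.86; limma adjusted p = 0.927). It shares 573 of its 1171 exon bases with the readthrough gene Gm20390, so its reads may be split or dropped in counting. Itpr3, an inositol trisphosphate receptor, stood at 3558, 3104 and 2888 in Hdac2 cKO 1, 2 and 3, against 4285, 3428 and 4919 in WT 1, 2 and 3 (log2 fold change -0.39, SE 0.21; limma adjusted p = 0.927). Of the BK gamma subunits, which shift BK activation to lower voltages, Lrrc26 stood at 45.5, 45.2 and 18.2 in Hdac2 cKO 1, 2 and 3, against 27.4, 16.4 and 4.09 in WT 1, 2 and 3, with a log2 fold change of 1.35 (SE 0.85; limma adjusted p = 0.927), or 0.64 without WT 3. The WT 3 value of Lrrc26 rested on 4 reads. Lrrc38 went the other way, with a log2 fold change of -0.74 (SE 1.26), or -0.0043 without WT 3. For Lrrc55 it was 0.64 (SE 0.74), but -0.22 without WT 3. Ryr1, the skeletal muscle calcium release channel, stood at 140.4, 157 and 143 in Hdac2 cKO 1, 2 and 3, against 375, 99.8 and 309 in WT 1, 2 and 3. Ryr1 was lowest in WT 2, below every Hdac2 cKO library. Skeletal muscle markers, with Tnni2 at 0 in 1 or more libraries, summed to 201, 1252 and 106 in Hdac2 cKO 1, 2 and 3, against 10221, 4049 and 2620 in WT 1, 2 and 3, and their part in the Ryr1 values was not tested.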

How the data were processed

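Bulk RNA-seq of dorsal root ganglia was read in 3 Hdac2 cKO and 3 WT libraries, with groups and replicate numbers from the sample titles. The submitters' processing notes name the tools HISAT2, SAMtools, featureCounts and DESeq2 and the build mm10. Versions, annotation and strand setting: not given in the sources used here. The deposited signal values are gene read counts divided by 1 size factor per library: taking the lowest nonzero value of a library as 1 read turned 100% of its values into whole numbers (tolerance 0.01). Names, coordinates and exon lengths came from GENCODE M21, which matched 54495 of 54532 identifiers. The main test was limma 3.58.1 (R 4.3.3) applied to log2 (value + 1) with the trend and robust options, over genes that reached 10 in 3 libraries or more, with p-values adjusted by Benjamini-Hochberg. A fold change on this scale understates the change of low genes. Alternatives were edgeR 4.0.16, DESeq2 1.42.0 and limma-voom on the recovered reads, other scalings, pseudocounts and filters, a sex term, array weights, a replicate block and leaving out libraries. Scripts were tested on simulated data. The members and gene lists were chosen with earlier results of these data known. Named genes were all members, the 2 genes of smallest p in each direction of the wider list and the 2 nearest profiles per member. Lrrc26, Lrrc38, Lrrc55 and Ryr1 were added after their values were seen. Some items are not reported here. Deviations of same-numbered libraries from their group means correlated by 0.40, 0.15 and 0.42 across genes, so by the rule used, each above 0.1, the numbers were taken as pairs, from the data and not the labels. Hdac2 cKO 2 correlated more with WT 1 (0.34) than with WT 2, and the pair numbered 3 joined a female and a male library. The main limma test and the permutation test did not use the pairs. Nothing says the libraries came from separate animals, so the p-values rest on the spread among these libraries, which may be technical.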

Additional observations from a re-analysis of the deposited data

How the results depend on the processing

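Over 21 alternatives for each of the 10 channel genes, 194 of 210 kept the sign of the log2 fold change without a call. Changing the filter or adding the replicate block cannot alter a gene's log2 fold change in this balanced design. Agreement of sign in those settings was therefore fixed in advance, and the count overstates how stable the signs are. The 2 calls, of Kcnma1 (0.77) and Kcnmb4 (-2.13), came with array weights, so members called numbered 2 there, against 0 in the main test and all other alternatives. Signs turned with array weights for Kcnn2 (-0.020), Kcnt1 (-0.31) and Kcnt2 (-0.036), with a sex term for Kcnt1 (-0.026), and without both libraries numbered 3 for Kcnt1 (-0.24) and Kcnt2 (-0.071). Leaving out 1 library at a time gave ranges of -0.27 to 0.68 for Kcnmb1, -0.18 to 0.12 for Kcnmb2, -0.37 to 0.072 for Kcnn1 and -0.20 to 0.18 for Kcnt1, which include turned signs, and of 0.37 to 1.09 for Kcnma1, -1.47 to -0.45 for Kcnmb4, 0.10 to 1.53 for Kcnn3 and 0.060 to 0.25 for Kcnn2. The median over the 10 genes was -0.028 with array weights and -0.035 without both libraries numbered 3, and between 0.0043 (without WT 3) and 0.35 with 1 library left out. The median of the 30-gene list was -0.13 with array weights, and between -0.038 (without WT 3) and 0.097 (without Hdac2 cKO 3) with 1 library left out. Genes called over the whole table were 567 with array weights, 26 by DESeq2, 75 by DESeq2 with the replicate block and 5 without both libraries numbered 3; limma with the replicate block called 0, and the block changed no call of a channel gene. With the longest transcript as length, chosen after seeing the data, levels per kilobase of Kcnma1, Kcnmb4, Kcnn2, Kcnn4 and Kcnt1 moved by more than their SD. The cause of these changes was not tested. Kcnmb4 and Kcnn3 had as few as 22 and 29 reads in a library.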
